A study of Mus musculus with 2 samples.

Results

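The genes described here are 9 members of the mouse killer lectin-like receptor family: Klrh1, Klrd1, Klrk1, Klrc1, Klrc2, Klrb1c, Klre1, Klra4 and Klra8. The single-cell libraries list 34097 genes, of which 27 carry a Klr symbol. The 9 were chosen by name with their counts in these same libraries already known, so they were selected on the levels and differences given below, and those values are a description with no test. The 2 libraries came from grafted tumours of LLC, the mouse Lewis lung carcinoma line. The control group was 1 tumour library with the treatment label control, and the knockdown group was 1 tumour library of cells given a short hairpin RNA (shRNA) against Gfpt2, an enzyme of the hexosamine pathway. The host strain and age, the number of tumours and animals behind each library, the hairpin and whether it was in 1 clone are not given in the sources used here. Differences between the groups rest on a single library each and have no replicate check, and every interval below is a 95% interval for counting error only.

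Killer lectin-like receptors are C-type lectin-like proteins on natural killer (NK) cells and on some CD8 T cells. The mouse genes lie in the NK gene complex, and many of the receptors read class I molecules and their relatives on other cells. The Ly49 receptors (Klra genes) bind classical class I or viral proteins. CD94 (Klrd1) pairs with NKG2 proteins (Klrc genes) and reads Qa-1, the product of H2-T23, while NKG2D (Klrk1) reads stress-induced class I-like ligands. Inhibitory members recruit phosphatases such as Ptpn6, and activating members signal through the adaptors Tyrobp (DAP12) or Hcst (DAP10).

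Counts are unique molecular identifiers (UMIs), and a level is given in CPM, the depth-scaled count of the field, which sets the UMIs of a gene against all UMIs of those cells in 1 library. Cells were taken by marker counts into gates: CD8 T cells (484 control, 412 knockdown), NK cells (52 and 53), macrophages (3999 and 4571) and tumour-like cells (4982 and 5214). The CD4 T cell gate held only 38 and 29 cells. Gfpt2 itself had 212 UMIs (2.05 CPM) in control and 57 UMIs (0.648 CPM) in knockdown tumour-like cells, a log2 ratio of -1.66 (-2.11 to -1.23). The libraries held 165824226 and 138402860 UMIs, and 37 cell barcodes occurred in both. The tumour-like label rests on Hmga2, a chromatin protein gene high in this line (219.7 and 218.4 CPM), since Krt8, Krt18 and Epcam had at most 9 UMIs in either library; the gate also carried the fibroblast gene Dcn at 1028 and 1078 CPM. Gates were not pure: 63 control and 67 knockdown CD8 T cells also met the macrophage gate, and of the NK cells 8 and 1 also met the tumour-like gate and 4 and 13 the macrophage gate.

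The receptors were spread unevenly over the gates, and several shared one. Klrh1 lay almost wholly in CD8 T cells, which held 94.1% of its control UMIs and 92.5% of its knockdown UMIs. Klra4 lay in the tumour-like cells, with 89.6% and 87.3% of its UMIs. Klrk1 was spread, with 51.4% and 52.0% of its UMIs in macrophages. Klrc1 lay mainly in CD8 T cells (76.0% and 69.3%), and Klrb1c and Klra8 had their largest gated share in the few NK cells (Klrb1c 51.9% and 47.4%, Klra8 43.1% and 50%).

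**Figure D1:**
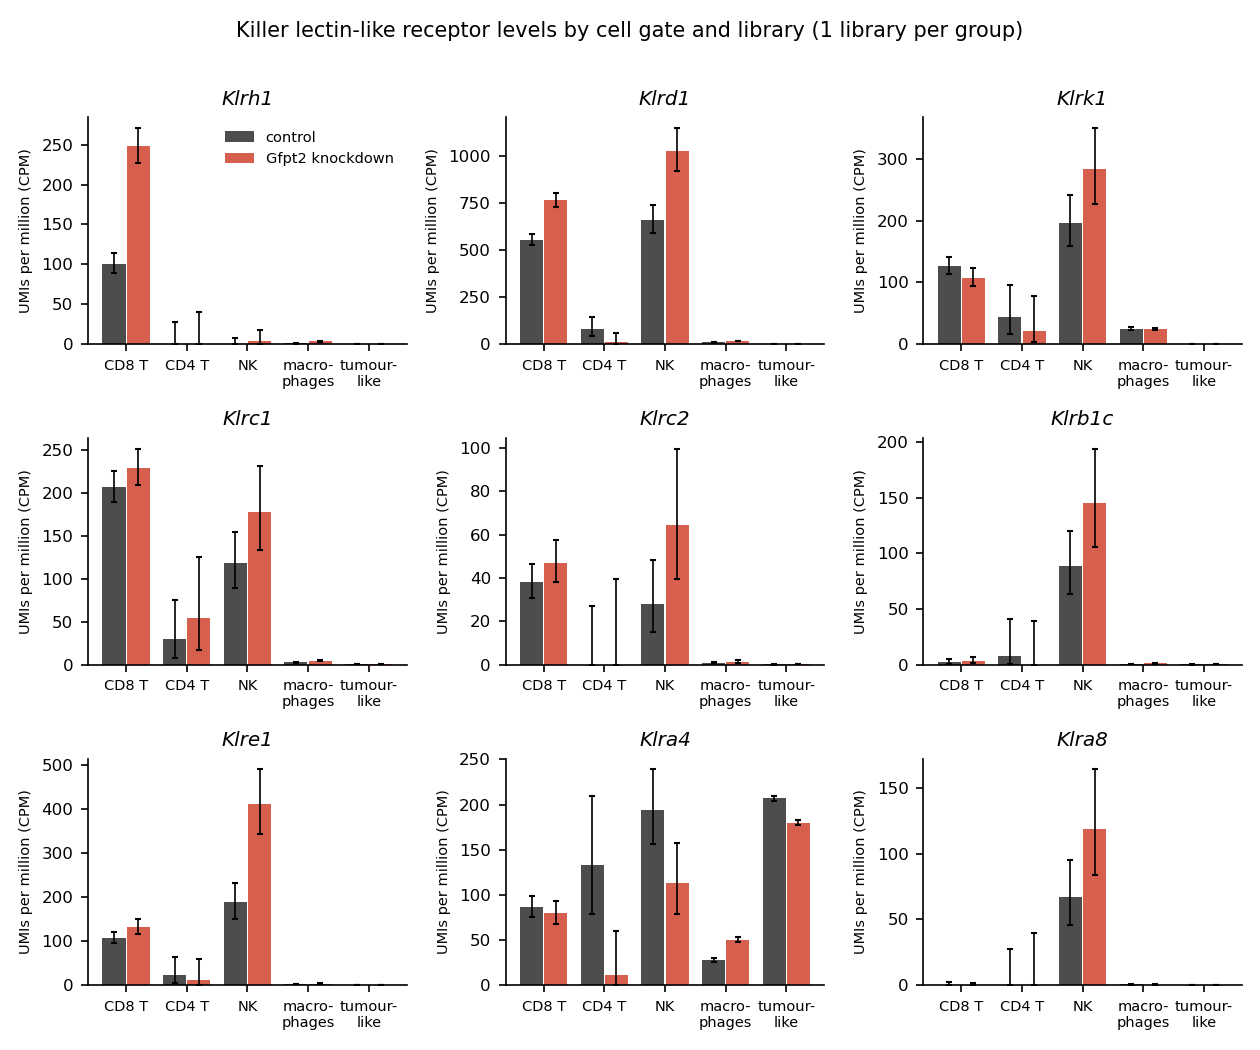
Level of each of the 9 receptors (y axis, CPM, each panel with its own scale) in the 5 cell gates (x axis), with control in grey and knockdown in red and exact Poisson 95% intervals. Klrh1 stands in CD8 T cells, Klra4 in tumour-like and NK cells, and Klrb1c and Klra8 in NK cells; the CD4 T intervals are wide because that gate held 38 and 29 cells.

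Klra4 was found mainly outside the lymphocytes. It encodes Ly49D, an activating receptor of NK cells that signals through Tyrobp, and Klra8 encodes Ly49H, an activating receptor for a cytomegalovirus protein. Klra4, found mainly in tumour-like cells, lies between Klra6 and Klra8 on chromosome 6. The region before and after the start of each of these 3 genes is shown, to set Klra4 beside its neighbours. The sequences are from RefSeq, build GRCm38.p6, minus strand, from 250 bases before to 50 bases after the gene start: chr6:130067222-130067521 for Klra4, chr6:130129849-130130148 for Klra8 and chr6:130026905-130027204 for Klra6. Capitals mark the longest run of bases that Klra4 and Klra8 share (37 bases) and, in Klra6, the longest run it shares with Klra4 (19 bases).
Klra4: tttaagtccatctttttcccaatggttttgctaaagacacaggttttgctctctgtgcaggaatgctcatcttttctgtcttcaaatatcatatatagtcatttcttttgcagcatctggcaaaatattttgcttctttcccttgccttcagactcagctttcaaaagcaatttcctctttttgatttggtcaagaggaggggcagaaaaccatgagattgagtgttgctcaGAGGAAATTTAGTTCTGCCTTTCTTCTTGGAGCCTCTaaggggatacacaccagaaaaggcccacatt
Klra8: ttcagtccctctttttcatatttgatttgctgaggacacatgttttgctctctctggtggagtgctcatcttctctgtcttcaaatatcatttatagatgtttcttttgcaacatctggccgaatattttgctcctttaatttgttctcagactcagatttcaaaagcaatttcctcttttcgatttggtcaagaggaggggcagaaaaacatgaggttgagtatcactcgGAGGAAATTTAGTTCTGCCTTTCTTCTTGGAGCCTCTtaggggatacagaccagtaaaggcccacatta
Klra6: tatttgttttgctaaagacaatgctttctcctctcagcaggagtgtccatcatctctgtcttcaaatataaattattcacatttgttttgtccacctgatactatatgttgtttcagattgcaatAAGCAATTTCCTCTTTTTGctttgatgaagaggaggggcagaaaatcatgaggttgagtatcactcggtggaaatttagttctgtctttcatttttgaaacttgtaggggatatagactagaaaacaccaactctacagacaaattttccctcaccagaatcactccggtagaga
The Klra4 and Klra8 windows were identical at 86.0% of aligned positions, and Klra4 and Klra6 at 61.3%. The letters TATAAA, searched on both strands, are in the Klra8 and Klra6 windows and not in that of Klra4, and 14.2% of 27025 RefSeq windows of the same length hold them. Neither the RUNX letters TGTGGT (16.9% of all windows) nor the AP-1 letters TGANTCA (7.93%) are in any of these 3 windows.

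Tumour-like cells held 21433 Klra4 UMIs in control and 15794 in knockdown. That was 206.8 CPM (204 to 210) in control and 179.7 CPM (177 to 182) in knockdown cells, a log2 ratio of -0.20 (-0.23 to -0.17). It was seen in 76.1% of control tumour-like cells (3793 of 4982) and in 68.9% of knockdown ones (3594 of 5214). With each cell thinned to 5000 UMIs the shares were 48.1% and 44.7%. Among cells with a Klra4 UMI the median was 3 UMIs in both libraries. The 10 cells richest in Klra4 held 2.38% and 2.22% of its UMIs, so the signal did not rest on a few cells. It was uneven over the gate, as the clusters below show.

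The neighbours of Klra4 were far lower in the same cells. Klra8 had 2 UMIs in each library, from 4982 and 5214 cells, although it was detected in the far fewer NK cells with 31 and 37 UMIs. Klra6 had 159 and 123 UMIs (1.53 and 1.40 CPM), and the largest Klra6 count in any cluster of tumour-like cells below was 51. The near-identity of Ly49 genes bears on such counts, so the transcripts of the GENCODE M21 annotation were compared in windows of 90 bases. None of the 1156 windows of Klra4 occurs in another gene, and none of the Klra6 windows does, while 16.1% of the Klra8 windows (175 of 1089) also occur in another gene, most of them in Klra14-ps. The other 7 members had at most 1.09 CPM in tumour-like cells, the highest being Klrd1 with 88 and 96 UMIs.

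Klra4 varied across the tumour-like cells. They were clustered without any Klr gene into 9 clusters, called here by number and leading genes. At this resolution Klra4 was highest in cluster 5, led by the mitotic genes Cenpf, Cdc20 and Hmmr, with 339.8 CPM (330 to 350) in control and 276.5 CPM (266 to 287) in knockdown cells. Cluster 2, led by Cryab and holding the hypoxia-responsive genes Slc2a1, Ndrg1 and Adm, had 270.0 and 230.3 CPM. Cluster 0, led by replication-dependent histone genes and Rrm2, had 245.3 and 215.4 CPM. It was lowest among clusters of at least 100 cells per library in cluster 4, led by the matrix-related genes Ptn, Cilp and Dpt with Col1a1, at 83.5 and 86.9 CPM. From cluster 4 to cluster 5 the level was 4.07-fold higher in control and 3.18-fold higher in knockdown cells, and at a finer resolution with 15 clusters the widest gap was 7.21-fold and 7.30-fold. At that resolution the highest cluster was again a mitotic one in control (Cdc20, Cenpa, Ccnb2; 339.1 CPM). In the knockdown library it was a cluster led by Ydjc, Hmga1 and Ccnd1, with 303.9 CPM of Klra4 and 17.0 CPM of the proliferation gene Mki67, above the clusters led by Cdc20 (274.1 CPM) and Cenpf (269.0 CPM). These gaps are between clusters of the same cells and have no test.

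The knockdown over control ratio of Klra4 differed in sign between clusters. Among the 5 clusters of at least 100 cells per library, it was -0.30 (-0.37 to -0.23) in cluster 5, -0.23 (-0.30 to -0.16) in cluster 2 and -0.19 (-0.24 to -0.13) in cluster 0. In cluster 4 it was 0.06 (-0.03 to 0.15). In cluster 1, led by Ptprk, Whrn and Csmd3, Klra4 was higher in the knockdown library, at 173.6 against 142.1 CPM, a log2 ratio of 0.29 (0.20 to 0.38). The smaller clusters had lower ratios: -0.61 (-0.89 to -0.32) in cluster 6, led by Ighg2c and Cd74 (43 and 122 cells), and -0.50 (-1.06 to 0.02) in cluster 3, led by immunoglobulin genes (59 and 30 cells). The makeup of the gate moved as well: cluster 1 held 9.27% of control and 19.2% of knockdown tumour-like cells. Cluster 7 (Krt16, Klk8) had 186 cells, all from the control library, and 116 CPM of Klra4. Cluster 8, led by the endothelial-type genes Igfbp7, Plvap and Cdh5 and with Xist at 454 and 609.7 CPM, had no Klra4 UMI in its 6 control and 9 knockdown cells, with upper bounds of 52.3 and 40.9 CPM. The part of gate makeup in the ratio over all tumour-like cells was not tested.

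**Figure D2:**
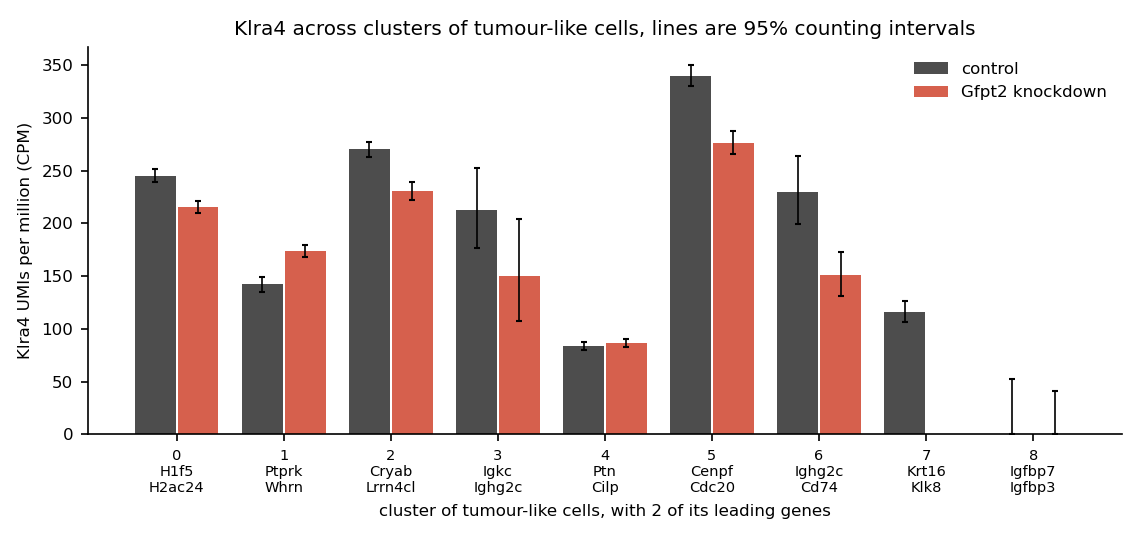
Klra4 level (y axis, CPM) in each cluster of tumour-like cells (x axis, cluster number with 2 of its leading genes), control in grey and knockdown in red, with exact Poisson 95% intervals. Cluster 5 (Cenpf, Cdc20) is highest at 339.8 and 276.5 CPM, cluster 4 (Ptn, Cilp) sits at 83.5 and 86.9 CPM, cluster 7 has no knockdown cells and so no red bar, and cluster 8 has no Klra4 UMI.

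The genes most like Klra4 in tumour-like cells were taken as those with the highest ratio of CPM between cells with and without a Klra4 UMI, by the lower of the 2 libraries, among 11010 genes. The first 8 were Wwc1, Gm20744, Tafa5, Wincr1, Gm47080, Hmga1, Aurka and Ube2c. Wwc1, which encodes the Hippo pathway scaffold KIBRA, had 12.8 CPM with and 2.40 without Klra4 in control cells and 9.99 and 2.31 in knockdown cells. Hmga1, a chromatin protein gene, had 102 against 31.7 and 86.7 against 32.2 CPM. Ube2c, a ubiquitin-conjugating enzyme of mitosis, had 369.95 against 116 and 369.1 against 143 CPM. Cells with a Klra4 UMI were deeper, with medians of 20763 against 13504 UMIs in control and 17000.5 against 11024 in knockdown cells. After thinning to 5000 UMIs per cell all 8 genes were still higher beside Klra4 in both libraries, with log2 ratios from 0.73 (Aurka, knockdown) to 1.45 (Wincr1, control). At the other end, and named after their values were seen, Cilp (13.8 against 63.7 and 15.02 against 68.8 CPM) and Col1a1 (12.3 against 49.1 and 14.2 against 61.1 CPM) were lower in cells with Klra4, as were the endothelial-type genes Igfbp3 and Igfbp7.

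Klra4 was also counted outside the tumour-like gate, and its ratio to the tumour gene Hmga2 differed between gates. In tumour-like cells there were 0.941 Klra4 UMIs per Hmga2 UMI in control (0.924 to 0.959) and 0.823 in knockdown cells (0.806 to 0.840). In macrophages the ratio was 0.824 (0.742 to 0.914) and 0.571 (0.529 to 0.615). In CD8 T cells it was 1.63 (1.31 to 2.03) and 0.994 (0.793 to 1.25). In NK cells it was 4.29 (2.64 to 7.26) and 3.18 (1.58 to 6.95), above every other gate shown in both libraries.

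**Figure D3:**
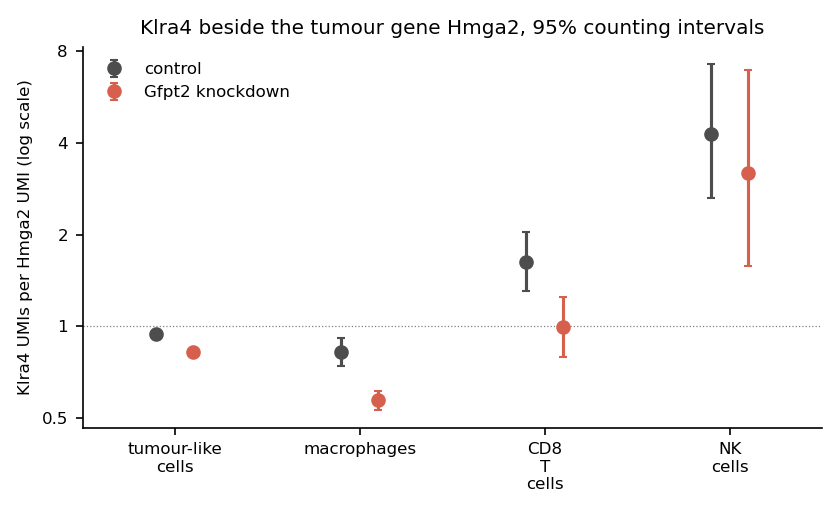
Klra4 UMIs per Hmga2 UMI (y axis, log scale) in tumour-like cells, macrophages, CD8 T cells and NK cells (x axis), control in grey and knockdown in red, with exact binomial 95% intervals. NK cells stand highest at 4.29 and 3.18, and macrophages lowest in the knockdown library at 0.571.

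In NK cells Klra4 had 90 UMIs (194 CPM, 156 to 239) in control and 35 UMIs (113 CPM, 78.6 to 157) in knockdown cells. The 10 richest cells held 85.6% and 94.3% of them, and 1 control cell held 27 of the 90, so the level, its ratio between the libraries and its ratio to Hmga2 rest on few cells, and the counting intervals do not cover the spread between cells. NK cells with no Hmga2 UMI had a like level, 186 CPM (49 UMIs in 43 cells) and 107 CPM (28 UMIs in 46 cells). The log2 ratio between the libraries in all NK cells was -0.79 (-1.39 to -0.21), with 17 and 12 cells behind it, and it took the other sign under 2 alternatives, at 0.74 when at least 2 Ncr1 UMIs were asked for and at 0.10 after thinning to 2000 UMIs per cell. Other Ly49 genes were present in the same cells: Klra8 had 67.0 and 119 CPM, Klra1 (Ly49A) 75.6 and 80.6 CPM, Klra9 69.1 and 123 CPM, and Klra7 (Ly49G) 164 and 516 CPM.

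In CD8 T cells Klra4 had 220 and 159 UMIs (86.3 and 79.5 CPM) from 42 and 33 cells, and the 10 richest cells held 60.5% and 79.9% of them. The log2 ratio there was -0.12 (-0.42 to 0.18), with 0.51 from cells that met no other gate, -0.72 with Scrublet's own doublet threshold and -1.50 from cells with no Hmga2 UMI, a split chosen after seeing the data. Its level was higher in cells with an Hmga2 UMI. CD8 T cells with no Hmga2 UMI had 28.5 CPM (444 cells) and 10.1 CPM (376 cells), and those with an Hmga2 UMI had 222 CPM (40 cells) and 235 CPM (36 cells). In macrophages Klra4 had 27.7 CPM (25.6 to 29.8) in control and 50.2 CPM (47.3 to 53.3) in knockdown cells, a log2 ratio of 0.86 (0.72 to 1.00), and the ratio was -0.30 with Scrublet's own doublet threshold and -0.04 with no doublet removal. Hmga2 moved with it, from 33.6 to 88.0 CPM. Macrophages with an Hmga2 UMI had 128 and 132 CPM of Klra4, and those with none had 10.8 and 19.6 CPM. The summed LLC marker list in macrophages (4 of 5 markers detected, Krt8 at 0 in both libraries) was 35.4 and 89.3 CPM, and its part in the Klra4 difference was not tested.

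The CD94 and NKG2 members were receptors of CD8 T cells and NK cells. Klrd1, the CD94 chain shared by the NKG2 receptors, had 556 CPM (527 to 585) in control and 765 CPM (727 to 804) in knockdown CD8 T cells, a log2 ratio of 0.46 (0.36 to 0.57), and was seen in 72.5% and 76.2% of the cells. Klrc1, the inhibitory NKG2A chain, had 207 and 229 CPM, and its interval for the log2 ratio (0.15, -0.04 to 0.33) includes 0. Klrc2, the activating NKG2C chain, had 38.0 and 47.0 CPM, with a log2 ratio of 0.30 (-0.12 to 0.73). Klrc1 and Klrc2 share sequence: 18.6% of the 90-base windows of Klrc1 also occur in Klrc2, so reads could be divided between them.

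Klrk1, which encodes NKG2D, had no clear difference between the libraries in CD8 T cells. It had 126 CPM (113 to 141) in control and 107 CPM (93.6 to 123) in knockdown cells, a log2 ratio of -0.23 (-0.49 to 0.02) whose interval includes 0, and it was positive, at 0.17, with Scrublet's own doublet threshold. Set per Klrd1 UMI, Klrk1 had 0.227 UMIs (0.201 to 0.257) in control and 0.140 (0.121 to 0.162) in knockdown CD8 T cells, while in NK cells it had 0.297 and 0.276.

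Macrophages had less Klrk1 than CD8 T and NK cells, but more of it per Klrd1 UMI. CD8 T cells had 126 and 107 CPM of Klrk1 and NK cells 197 and 284 CPM. Macrophages had 25.1 CPM (23.1 to 27.2) in control and 24.5 CPM (22.5 to 26.7) in knockdown cells, a log2 ratio of -0.03 (-0.20 to 0.14). It was seen in 11.3% and 9.95% of macrophages, or 5.10% and 4.71% after thinning to 2000 UMIs. Per Klrd1 UMI macrophages had 2.89 (2.47 to 3.405) and 1.58 (1.38 to 1.82) Klrk1 UMIs, above the CD8 T and NK cell values in both libraries. Klrd1, the denominator, was low in macrophages and differed between the libraries (8.67 and 15.5 CPM). The share in tumour-like cells, a gate with no Ptprc UMI, was 0.422% and 0.748% at deeper medians of 18744 and 14680.5 UMIs, against 5390 and 3973 UMIs in macrophages. Several lymphocyte members in macrophages were higher in the knockdown library, as were T and NK markers: Klrd1 went from 8.67 to 15.5 CPM, Klrc1 from 2.42 to 4.57 CPM and Klrh1 from 0.876 to 3.52 CPM, beside a summed CD8 T marker list (6 of 6 detected) of 53.3 and 71.9 CPM and a summed NK list (8 of 8) of 46.4 and 71.3 CPM, and the part of those cells in the difference was not tested. Klra8, with 11 and 6 UMIs, went the other way, from 0.459 to 0.274 CPM. The macrophage log2 ratios of Klrd1 (0.84) and Klrc1 (0.92) were 0.10 and 0.09 with Scrublet's own doublet threshold. Of the other Klr genes in macrophages, Klra2, which encodes the myeloid Ly49B, had 188.8 and 197.1 CPM.

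Klrh1, a receptor related to Klre1 and Klri genes whose ligand is not stated here, had the widest gap of the members in CD8 T cells. It had 257 UMIs in control and 496 in knockdown CD8 T cells, 101 CPM (88.8 to 114) and 247.8 CPM (227 to 271). The log2 ratio was 1.30 (1.08 to 1.52), or 2.46-fold. It was seen in 13.6% of control cells (66 of 484, 10.7 to 17.0) and 26.9% of knockdown cells (111 of 412), and in 11.3% and 26.0% after thinning to 2000 UMIs. Cells with Klrh1 had a median of 3 UMIs in control and 4 in knockdown cells, and the 10 richest cells held 37.0% and 27.6% of its UMIs. Across the alternatives tried, its log2 ratio lay between 1.13, with cells in 1 gate only, and 1.74, with Scrublet's own doublet threshold. NK cells had 0 and 1 Klrh1 UMIs. CD4 T cells had no Klrh1 UMI, and 0 of 38 and 0 of 29 cells allow shares of up to 7.89% and 10.3% of cells with a UMI (3 counts of the total). That limit does not cover cells that express the gene and gave no UMI. Macrophage markers were also counted in the CD8 T gate. The summed macrophage list (7 of 7 markers) was 6100 CPM in control and 7856 CPM in knockdown CD8 T cells, against 73920 and 61432 CPM in macrophages. The source of these UMIs in the CD8 T gate was not tested. With cells that met no other gate, Klrh1 had 126 CPM (110 to 143) and 275 CPM (249 to 303).

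Klre1, which pairs with Klri1 or Klri2 products, had 107 CPM in control and 132 CPM in knockdown CD8 T cells, a log2 ratio of 0.31 (0.06 to 0.56). Klri2, the gene next to Klrh1 on chromosome 6, had 48 and 93 UMIs, or 18.8 and 46.5 CPM, with a log2 ratio of 1.30 (0.79 to 1.84). Klrb1c, the NK1.1 antigen, had only 6 UMIs in each library, and Klra8 had 1 and 0. Counting genes with at least 50 UMIs over both libraries, 1 of 7 members (Klrh1) was at least 2-fold higher in knockdown CD8 T cells and none was 2-fold lower. Over all 8612 genes counted the same way, 0.941% were 2-fold higher and 0.418% 2-fold lower. The median log2 ratio was 0.30 over those members and 0.06 over all genes. As the members were chosen with these values known, nothing is read from that count. Of the other Klr genes, 1 of 4 (Klri2) was 2-fold higher.

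**Figure D4:**
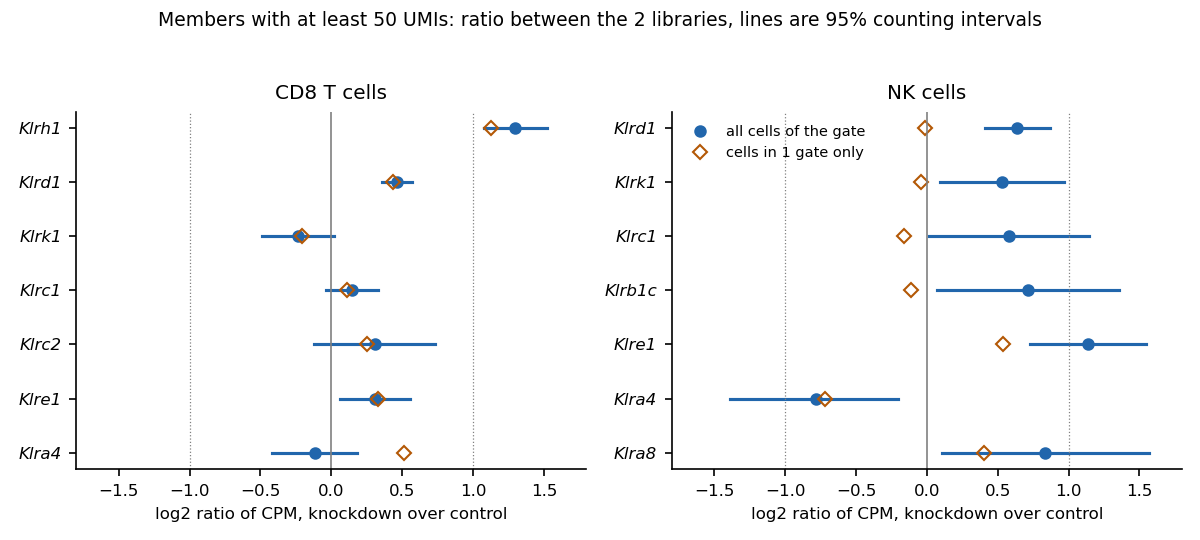
Log2 ratio of CPM, knockdown over control (x axis), for members with at least 50 UMIs in CD8 T cells and in NK cells (rows), with 95% counting intervals as lines; circles use all cells of a gate and diamonds only cells that meet 1 gate. Klrh1 at 1.30 is the only CD8 T cell member past a 2-fold ratio, and in NK cells most diamonds lie nearer 0 than the circles.

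The genes most like Klrh1 in CD8 T cells were chosen in the same way among 5833 genes: Prf1, Gm36723, Tnfrsf4, Matk, C1qtnf6, Zbtb32, Postn and Nrgn. Prf1, which encodes the pore-forming protein perforin, had 292 CPM in control cells with Klrh1 and 146 in those without, and 656 and 296 CPM in knockdown cells. Tnfrsf4, the costimulatory receptor OX40, had 133 against 60.2 and 137 against 70.2 CPM. Zbtb32, a transcriptional repressor of activated lymphocytes, had 37.1 against 19.6 and 82.8 against 25.6 CPM. After thinning to 2000 UMIs per cell, 7 of the 8 were still higher beside Klrh1 in both libraries, and Postn, a matrix gene, was lower in both (log2 ratios of -1.15 and -1.78).

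Gzma, which encodes granzyme A and was named after its values were seen, was the lowest of the 5833 genes by this measure. Control CD8 T cells with Klrh1 had 15.3 CPM of Gzma against 490.0 without, and knockdown cells had 1.92 against 178. Itgb7 (2.18 against 77.0 and 9.62 against 53.3 CPM) and Ly6c2 (41.4 against 269.6 and 42.3 against 155 CPM) had the same direction. All 3 were lower beside Klrh1 in both libraries.

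**Figure D5:**
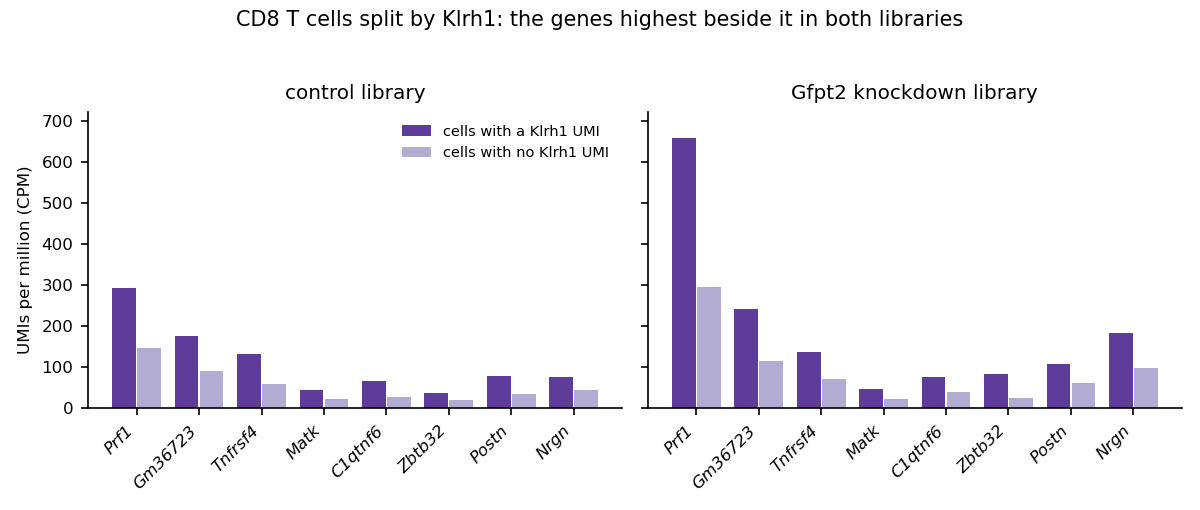
Level (y axis, CPM) of the 8 genes most like Klrh1 (x axis) in CD8 T cells with a Klrh1 UMI (dark, 66 control and 111 knockdown cells) and without one (light, 418 and 301 cells), control on the left and knockdown on the right. Prf1 is at 292 against 146 CPM in control and 656 against 296 CPM in knockdown cells.

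Among the members with at least 50 UMIs in each library, Klre1 and Klrd1 had the highest ratio of CPM between CD8 T cells with and without Klrh1, in both libraries. Klrd1 was seen in 92.4% of control cells with Klrh1 (61 of 66) and 69.4% of those without, and in 91.0% and 70.8% in the knockdown library. Klre1 was seen in 53.0% against 26.3% and in 47.7% against 31.2%. After thinning, Klre1 was seen in 42.6% against 20.1% in control and in 35.9% against 21.1% in knockdown cells, while Klrk1 (25.5% against 26.2%, and 19.2% against 17.7%) hardly differed. These are shares over cells of 1 library each and carry no test between conditions.

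NK cells had UMIs of every member except Klrh1 in control, and of all 9 in the knockdown library, where Klrh1 had 1 UMI. Klrd1 had 661 CPM (589 to 740) in control and 1028 CPM in knockdown NK cells (919 to 1148), Klrk1 had 197 and 284 CPM, Klrc1 119 and 177 CPM, and Klrc2 28.1 and 64.5 CPM. Klrb1c had 88.6 CPM (63.6 to 120) and 145 CPM (106 to 194), from 25 cells in each library. Klre1 had 188 CPM (151 to 232) and 413 CPM (344 to 491), a log2 ratio of 1.13 (0.73 to 1.54). Of the 7 members with at least 50 UMIs, Klre1 was 2-fold higher and none was 2-fold lower, beside 3.39% higher and 2.53% lower over 2566 genes.

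The NK cell values changed with the definition of the gate. The summed NK marker list was 3561 CPM in control and 6445 CPM in knockdown NK cells (8 of 8 markers in each), the macrophage list 2219 and 6680 CPM, and the fibroblast list 1657 and 1206 CPM. With cells that met no other gate (40 and 39 cells) Klrd1 had 1232 and 1222 CPM, Klrk1 365 and 355 CPM, Klrb1c 160.1 and 148 CPM, and Klre1 341 and 494 CPM. No member then reached a 2-fold difference, and Klra4 had 222 and 135 CPM.

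In macrophages 6 members had at least 50 UMIs over both libraries, and Klrh1 alone of them was 2-fold apart. It passed that minimum with its 77 knockdown UMIs, against 21 in control, so nothing is read from its being counted beside the 6.96% of 13229 genes that were 2-fold higher and the 0.386% that were lower. The Klrh1 log2 ratio there was 2.01 (1.30 to 2.78), with 1.23 under Scrublet's own doublet threshold and 2.81 from cells in 1 gate only. Thinning left 1 control UMI and 27 knockdown UMIs, too few for a ratio. In tumour-like cells none of 3 members (Klra4, Klrd1 and Klrk1) was 2-fold apart in either direction, and Klrh1, with 7 and 42 UMIs, did not reach the minimum. Over 14831 genes 1.08% were higher and 0.58% lower there.

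The adaptors and ligands of these receptors came from lists of the pathway. In CD8 T cells Tyrobp had 162 and 223 CPM, a log2 ratio of 0.46 (0.26 to 0.66), and Hcst, the partner of NKG2D, had 216 and 187 CPM, a log2 ratio of -0.20 (-0.40 to -0.01). The summed macrophage list in the CD8 T gate was also higher in the knockdown library (6100 and 7856 CPM). Its part in the Tyrobp difference was not tested. None of the 8 adaptor and signal genes with enough UMIs was 2-fold apart there, and their median log2 ratio was 0.23. None of 10 transcription and cytokine-input genes was 2-fold apart either, with a median of 0.34. Over all 8612 genes 0.941% were 2-fold higher and 0.418% lower, so none in lists this short is near that share. The median over all genes of this gate is given above. Il2rb, the receptor chain for interleukins 2 and 15, had 218 and 311 CPM (0.51, 0.34 to 0.68) and Tbx21, the factor T-bet, 149 and 192 CPM. In NK cells 5 of the 10 listed adaptor and signal genes reached 50 UMIs over both libraries. Tyrobp had 665 and 1174 CPM, Ptpn6 136 and 213 CPM and Hcst 108 and 103 CPM. Inpp5d had 51.9 and 135 CPM (24 and 42 UMIs) and Sh2d1a 43.2 and 119 CPM (20 and 37 UMIs). Inpp5d and Sh2d1a passed that minimum with the UMIs of the library where they were higher, so no count of changed genes is drawn from this list. The NK and macrophage marker lists of the gate were also higher in the knockdown library, as given above. Inpp5d had 177 and 149 CPM in macrophages and Sh2d1a 1.33 and 2.10 CPM, and the part of other cells in the NK values was not tested.

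The tumour-like cells carried ligands of several members, as did the CD8 T cells. Of the Klrk1 ligands, 5 of 9 listed names are in the files, and 2 had enough UMIs: Ulbp1 with 56.4 and 63.2 CPM and Raet1e with 14.98 and 14.4 CPM. H2-T23, whose product Qa-1 is read by CD94 with NKG2, had 38.8 and 43.8 CPM, and the class I light chain B2m had 1548 and 1858 CPM. Clec2d, a ligand of a Klrb1 receptor, had 56.5 and 59.7 CPM. Il15, the cytokine that sustains NK cells, had 31.5 and 46.5 CPM, a log2 ratio of 0.56 (0.50 to 0.63). CD8 T cells had more Raet1e (18.0 and 15.5 CPM) and H2-T23 (249 and 346 CPM) than tumour-like cells. They also had more B2m (1697 and 1983 CPM) and Clec2d (87.8 and 81.9 CPM), but less Ulbp1 (41.6 and 46.0 CPM). Within the adaptor, ligand and input lists, no gene with enough UMIs was 2-fold apart in tumour-like cells, and the median log2 ratio over all genes there was 0.05. Over 14831 genes 1.08% were 2-fold higher and 0.58% lower there, so none in lists this short is near that share.

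The promoter windows of the other members differed in the searched letters. RefSeq windows were found for 8 of the 9 members and for 24 of the 27 Klr genes. TGTGGT is in those of Klrk1, Klrc1, Klrc2, Klrb1c and Klre1, TGANTCA is in those of Klrk1 and Klrc2, and TATAAA is in those of Klrh1, Klrc1, Klrc2 and Klra8. A match describes the letters of the window and is not a binding site.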

How the data were processed

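One 10x Genomics single-cell RNA library was analysed for the control group and 1 for the Gfpt2 knockdown group. The authors deposited raw UMI counts, in whole numbers and without normalisation. Per the file headers they came from Cell Ranger 6.1.0, and the submitters' processing notes name Cell Ranger 3.1.0. The genome build and any later filter on cells are not given in the sources used here.

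The receptors, the gene lists and the gates were chosen with earlier results of these data known. Cells with under 200 genes or over 20% mitochondrial UMIs were removed, and so were doublets, as the 1148 control and 1322 knockdown cells with the highest Scrublet scores (9.59% and 10.3% of cells); 10663 and 11450 cells were kept. Gates used UMIs per cell: CD8 T cells had a Cd3d, Cd3e and Cd3g sum of at least 2, at least 1 of Cd8a or Cd8b1 and no Cd4; CD4 T cells the same Cd3 sum, at least 1 Cd4 and no Cd8; NK cells at least 1 Ncr1 and no Cd3; macrophages at least 10 C1q UMIs per 10000; and tumour-like cells no Ptprc, under 5 Lyz2 per 10000 and at least 5000 UMIs. A cell could meet several gates.

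UMIs were summed per gate and library. CPM have exact Poisson intervals, shares exact Clopper-Pearson intervals (a share of 0 has the limit 3 counts of the total) and ratios exact conditional binomial intervals, all at 95%. UMIs were taken as independent, so these cover counting error only. With 1 library per group no test was run. A gene was counted as 2-fold apart among genes with at least 50 UMIs over both libraries, and the step was checked on simulated data. Thinning drew 2000 UMIs per cell (5000 in tumour-like cells) and left out shallower cells, 94 and 97 of the CD8 T cells. Tumour-like cells were clustered from both libraries together with scanpy 1.11.5 and leidenalg 0.10.2 (2000 variable genes, 30 components, 15 neighbours, resolution 0.5), without Klr genes. Named genes are the members, the other Klr genes, the fixed lists, and the 8 genes most like Klrh1 or Klra4 (pseudocount 1 CPM; at least 50 or 200 UMIs in each library); genes outside that rule are said to be named after their values were seen. Alternatives were other doublet, gate, scaling (edgeR 4.0.16 TMM), depth and cluster settings. The neighbours of a gene and the promoter windows are RefSeq's.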

Additional observations from a re-analysis of the deposited data

Results flagged for a closer look

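Klra4 differed in direction between cell gates. Its knockdown over control log2 ratio was 0.86 in macrophages, where Hmga2 was also higher in the knockdown library, -0.79 in NK cells, which numbered 52 and 53, and -0.20 in tumour-like cells. These directions did not hold under every alternative. The macrophage ratio was -0.30 with Scrublet's own doublet threshold and -0.04 with no doublet removal, and the NK ratio was 0.74 with at least 2 Ncr1 UMIs and 0.10 after thinning. The difference between the gates was not tested, because each group had 1 library.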

How the results depend on the processing

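The Klrh1 ratio in CD8 T cells kept its direction under every alternative run and moved most with Scrublet's own doublet threshold (log2 1.74), which marked 8.57% of control but 19.1% of knockdown cells. The Klra4 ratio in tumour-like cells was negative under every alternative run: -0.17 with at least 10000 UMIs, -0.45 without any Cd3, Ncr1, C1q or Lyz2 UMI, and -0.25 with TMM or median-of-ratios scaling. At resolution 1 the highest over lowest cluster log2 ratio of Klra4 was 2.85 in control and 2.87 in knockdown cells. The count of members at least 2-fold apart moved as follows. The share of all genes 2-fold apart under each setting is not given here, so nothing is read from these counts about the members. In CD8 T cells it was 1, and 2 without Hmga2 UMIs. In NK cells it was 1, then 2 at 20 UMIs and 0 with at least 2 Ncr1 UMIs, with 3 of 8 NK markers, with cells in 1 gate only and without Hmga2 UMIs. In macrophages it was 1, then 2 at 20 UMIs, 0 at 100 UMIs, 4 with C1q of at least 50 per 10000, 2 without Hmga2 UMIs and 0 after thinning. In tumour-like cells it was 0, and 2 at 20 UMIs and with no doublet removal. Some shifts follow from which members reach the minimum. In macrophages 6 members did, but 5 at 100 UMIs and 3 after thinning, and both left out Klrh1, whose log2 ratio of 2.01 does not depend on that minimum. At 20 UMIs 8 members entered in NK cells (7 at 50), 8 in macrophages and 6 in tumour-like cells (3 at 50), and 6 entered in tumour-like cells with no doublet removal. The cause of the other shifts was not tested. The Hmga2 and 3-marker alternatives were chosen after seeing the data, and so was leaving out clusters 3, 6, 7 and 8, which gave a Klra4 ratio in tumour-like cells of -0.23.

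Over the 21 ratios of single members other than these of Klrh1 in CD8 T cells and Klra4 in tumour-like cells, 144 of 197 alternatives moved the value by less than its counting interval and 53 by more. The NK ratio of Klrc1 lay between -0.72 and 0.85 and that of Klrd1 between -0.10 and 0.92. Scaling shifted all macrophage genes by 0.12 (log2), so the macrophage ratios are that much lower under TMM or median of ratios. No paired analysis was possible because each group had 1 library. The number of cells limits the NK values (52 and 53 cells) and the CD4 T values (38 and 29 cells).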
